A study of Mus musculus with 199 samples.

Results

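Of the 186 libraries made from 4 nuclear profiles each (4NP) in this collection of 199 multiplex-GAM libraries, 73 had almost no mouse genome called. They were selected on coverage, the percentage of the 65983 windows of 40 kb on chromosomes 1 to 19 and X (mm9) that the authors called positive. A 4NP library entered when its coverage was below 1%, and 9 of the 11 water controls met the same limit. The profiles were of the mouse embryonic stem cell line 46C, a male line of strain 129/Ola, and the collection is of libraries that failed the quality checks of the study. The 4 profiles in a cap were cut by laser from 220 nm cryosections and their DNA was amplified together, whereas a water control was an empty cap taken through the same amplification. A human DNA control was an empty cap that received 5 ng of human DNA, and 2 of these, both from the full collection, are given beside the results. The labels name no treatment of the cells before sectioning, so the conditions below are those of staining, storage, digestion and amplification.

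Genome architecture mapping (GAM) sections frozen cells at random angles and sequences the DNA of each thin nuclear slice. A slice holds a short stretch of every chromosome it crosses, so the positive windows of a profile library come as runs of adjacent windows on some of the chromosomes, and other chromosomes are empty. A library with no nuclear material has no such stretches to offer, although stray DNA and misaligned reads can still give positive windows. Water controls are the field's measure of that floor.

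The near-empty 4NP libraries came from 10 of the 11 experiments. The full collection, stained with cresyl violet, gave 28 of its 34 4NP libraries. The experiment titled as a cresyl violet test gave 16 of 21, and these were all 16 of its libraries labelled crystal violet. Whether that stain differed from the cresyl violet of the experiment's title is not clear from the labels. The study's methods describe crystal violet and cresyl violet as separate stains, and the libraries are called by their label. The propidium iodide staining and freezing experiment gave 10 of 43: 6 stained and frozen, 3 stained, and 1 unstained. The proteinase K volume titration gave 5 of 31: 2 of 2 labelled 1ul-mdc-pk, 1 of 7 labelled 3ul-mdc-pk and 2 of 7 labelled 8ul-mdc-pk. The 7 libraries labelled 1ul-csc-pk, the 7 labelled 4ul-mdc-pk and the 1 labelled 2ul-mdc-pk gave none. The test of amplification reagent volumes gave 5 of 6, with 3 of protocol a and 2 of protocol c. The SYBR Gold test gave 4 of 18, with 2 titled stained and 2 titled unstained, and for this experiment the titles were followed where the protocols named another stain. Freezing after incubation gave 2 of 5, of which 1 was labelled frozen-post-incubation and 1 unfrozen. The remaining 3 were the large-kit library of the kit size test, 1 library of the PCR cycle test labelled 20-pcr-cycles, and the unstained library of the eosin test. The 9 low water controls were 5 from the full collection, 2 from the kit size test and 1 each from the cresyl violet and SYBR Gold tests.

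The windows called most often were searched for sequence shared between them, because the same positions came up in library after library. Words of 16 bases were counted in the 4 windows called by most near-empty libraries and in no others. Whether their repeats set these windows apart was therefore not tested. The most frequent word of each was a simple repeat. It was GAAAGAAAGAAAGAAA with 32 copies in the AY036118 window of chromosome 17, and a CA repeat, counted on both strands, in the other 3 windows, where it had 32, 44 and 41 copies. The 20 most called windows were then aligned with each other, a step added after the data were seen, and 4 pairs of stretches matched at 97% identity or more over at least 150 bases. The longest joined the AY036118 window of chromosome 17 to a window without an annotated gene at the start of chromosome 6, at 98.0% identity over 908 aligned bases. The letters are taken, as background, for those of 18S ribosomal RNA, the RNA of the small ribosomal subunit, to which they were not aligned here. The RefSeq gene table of a later assembly (GRCm38.p6) lists the 18S pseudogene Rn18s-rs5 beside AY036118. The part of both copies with most differences is shown, plus strand of mm9, with the bases that differ between the copies in capitals.
chr6:3151434-3151673: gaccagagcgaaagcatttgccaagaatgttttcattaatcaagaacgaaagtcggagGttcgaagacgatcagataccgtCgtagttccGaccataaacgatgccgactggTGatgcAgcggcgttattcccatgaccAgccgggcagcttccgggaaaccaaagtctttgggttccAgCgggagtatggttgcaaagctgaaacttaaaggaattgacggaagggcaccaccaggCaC
chr17:39984290-39984528: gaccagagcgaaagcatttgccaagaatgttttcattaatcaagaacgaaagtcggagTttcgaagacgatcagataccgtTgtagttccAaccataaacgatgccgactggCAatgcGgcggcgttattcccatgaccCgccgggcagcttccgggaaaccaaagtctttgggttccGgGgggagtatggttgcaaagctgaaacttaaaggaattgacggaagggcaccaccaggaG
Only 5 stretches of mm9 matched this sequence at 90% identity over 100 bases or more. The other 3, on chromosomes 10, 19 and X, lay in windows that no near-empty or low water library called. This held for most windows, since the near-empty libraries called 11627 of 65983 and the low water controls 861. Of the 113 4NP libraries at or above 1% coverage, 6, 9 and 3 called these windows of chromosomes 10, 19 and X.

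Another 2 of the 4 pairs turned on the last exon of Lars2, the mitochondrial leucyl-tRNA synthetase, on chromosome 9. As background, this exon is taken to carry sequence of 28S ribosomal RNA, the RNA of the large subunit, which was not aligned here. Its copy on chromosome 6, outside any annotated gene in the window of Igf2bp3 and Tra2a, was 98.8% identical over 168 bases. Its copy on chromosome 16, in an intron of Kpna1 and an exon of Gm15564, was 97.6% identical over 167 bases of an adjacent part of the exon. At 90% identity over 100 bases or more, mm9 held 4 matches to each part. For the first part the others were on chromosome 12, 99.4% identical to the chromosome 6 copy over 168 bases, in a window called in 2 near-empty and 0 low water libraries, and on chromosome 16, 97.1% over 105 bases, in a window that neither group called. For the second they were on chromosomes 1 and 19, 92.6% and 94.2% identical, and neither group called those windows. Of the 113 4NP libraries at or above 1% coverage, 10, 8 and 11 called these uncalled windows of chromosomes 16, 1 and 19. The chromosome 6 copy is shown on the plus strand and the chromosome 16 copy on the minus strand, with bases that differ from the Lars2 exon in capitals.
chr6:49186449-49186616: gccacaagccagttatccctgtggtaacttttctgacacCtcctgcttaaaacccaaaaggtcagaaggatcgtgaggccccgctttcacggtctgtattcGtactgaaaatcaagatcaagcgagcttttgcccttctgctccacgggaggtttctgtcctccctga
chr16:35981741-35981907: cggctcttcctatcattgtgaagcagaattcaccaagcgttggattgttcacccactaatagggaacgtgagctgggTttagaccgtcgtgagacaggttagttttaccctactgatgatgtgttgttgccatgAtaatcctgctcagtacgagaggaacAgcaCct
The remaining pair, between introns of Pmel and Parp9, matched at 97.4% over 192 bases and had 21537 matches in mm9. The windows with these stretches were called in 34, 10, 13, 8, 15 and 16 near-empty libraries, for AY036118, the start of chromosome 6, Lars2, Igf2bp3, Kpna1 and Pmel. Whether reads from these stretches made the calls was not tested, since the deposited table holds calls per window and no reads.

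Coverage chose both groups, so its levels are given as a description. The 73 near-empty 4NP libraries held between 1 and 645 called windows, with a median of 74, and 14274 calls in all. The 9 low water controls held 35, 36, 42, 51, 65, 72, 87, 198 and 314, a median of 65 and 900 calls in all. All 9 water values lay inside the range of the near-empty libraries. The libraries closest below the limit had coverages of 0.94%, 0.97%, 0.97% and 0.98%, and those closest above it 1.09%, 1.22%, 1.24% and 1.25%. No water control was near it, since the highest of the 9 had 0.476% and the other 2 water controls were above 20%. The 2 human DNA controls held 26 and 35 calls.

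The near-empty libraries did not fill that range evenly. Of the 73, 36 had 52 calls or fewer and 37 had 74 or more, and none lay between. Most of the low ones were from the full collection, where 21 libraries had 20 to 52 calls, 3 had 1, 3 and 4, and only 4 had more than 100, at 186, 270, 617 and 638. Of the 37 upper libraries 16 were the crystal violet libraries, from 160 to 645 calls with a median of 365, and 7 were of the propidium iodide experiment. Low water controls had a median of 51 calls over the 5 of the full collection, and the single one of the cresyl violet test had 198. Replicate 6 of the full collection, with 314 calls, lay above that single library. Over all experiments 12 near-empty libraries had fewer than 20 calls, 8 of them 5 or fewer, and these were left out of every measure that is a share of calls, which leaves 61.

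**Figure D1:**
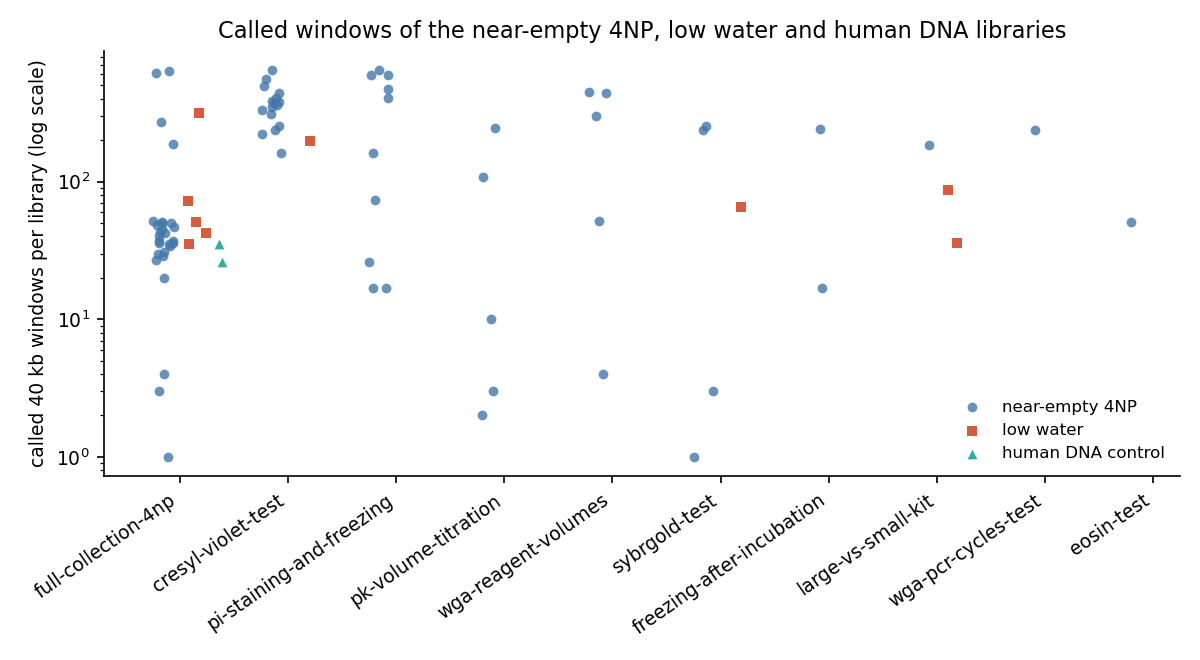
Called 40 kb windows per library (log scale) for the near-empty 4NP libraries (circles), low water controls (squares) and human DNA controls (triangles), by experiment as titled, with 1 point per library. Of the 28 near-empty libraries of the full collection 21 lie at 20 to 52 calls, 4 of its 5 low water controls lie at 35 to 72 and 1 at 314, and the 16 crystal violet libraries lie at 160 to 645 around their water control at 198.

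Most calls were private to 1 library. The near-empty libraries called 11627 different windows, and 9732 of these, holding 68.2% of all calls, were called in 1 library only. A further 1492 windows were called in 2 libraries, 403 in 3 or more and 11 in 10 or more. The 403 windows held 10.9% of the calls and the 11 windows 1.42%. In the low water controls 827 of 861 windows were called in 1 library, 32 in 2 and 2 in 3 or more. Of the 861 water windows 360 were also called in a near-empty library, which is 41.8% of the water windows and 3.10% of the near-empty ones, where calls scattered at the same number per library would share 172.

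The most called window was chr17:39960001-40000000, which holds the noncoding gene AY036118 and a stretch shown above. It was called in 34 of 73 near-empty libraries, 3 of 9 low water controls, both human DNA controls and 70 of the 113 4NP libraries at or above 1%. All 16 crystal violet libraries called it, against 6 of the 28 near-empty libraries of the full collection. The next was chr2:125960001-126000000, over Dtwd1 and 4930525F21Rik, with 31 near-empty libraries. It was called in 6 of the 9 low water controls, the highest share of any window there, and in both human DNA controls. Among the 113 libraries at or above 1% it was called in 19, or 16.8%, against 42.5% of the near-empty ones.

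The third was chr2:98480001-98520000, over the predicted genes Gm10800 and Gm10801, at a site known for collapsed satellite sequence. It was called in 26 near-empty libraries and in all 113 libraries at or above 1%, but in 0 of 9 low water controls, which allows a share of up to 33.3%, and in neither human DNA control. By Fisher's exact test, two-sided, the difference between near-empty and low water libraries at this window had p = 0.0514 and an adjusted p of 1.00. The fourth, chr17:4600001-4640000, overlaps no gene and was called in 22 near-empty, 2 water and 23 higher-coverage libraries.

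The other 6 of the 10 most called windows were called in 10 to 16 near-empty libraries. They were chr10:128120001-128160000 with Cdk2, a cell-cycle kinase, Dgka, Pmel and Rab5b (16 libraries, 12 of them crystal violet and none of the full collection), and chr1:12600001-12640000 with no gene (15). Then came chr16:35960001-36000000 with Kpna1, an importin, and Parp9 (15), and chr9:123360001-123400000 with Lars2 and Limd1 (13). The last were chr11:108840001-108880000 with the pseudogene Gm11668 (11) and chr2:16600001-16640000 with Plxdc2 (10). The window chr6:3120001-3160000, which holds the chromosome 6 copy of the AY036118 stretch shown above, was also called in 10 near-empty libraries and 0 low water controls, and was left out of the 10 as the later of the tie in genome order. The chromosome 11 window was called in 9 crystal violet libraries and 1 of the full collection, and the Plxdc2 window in 3 and 6. Low water controls called these 6 windows in 2, 1, 2, 2, 0 and 0 of 9 libraries, in the order named.

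**Figure D2:**
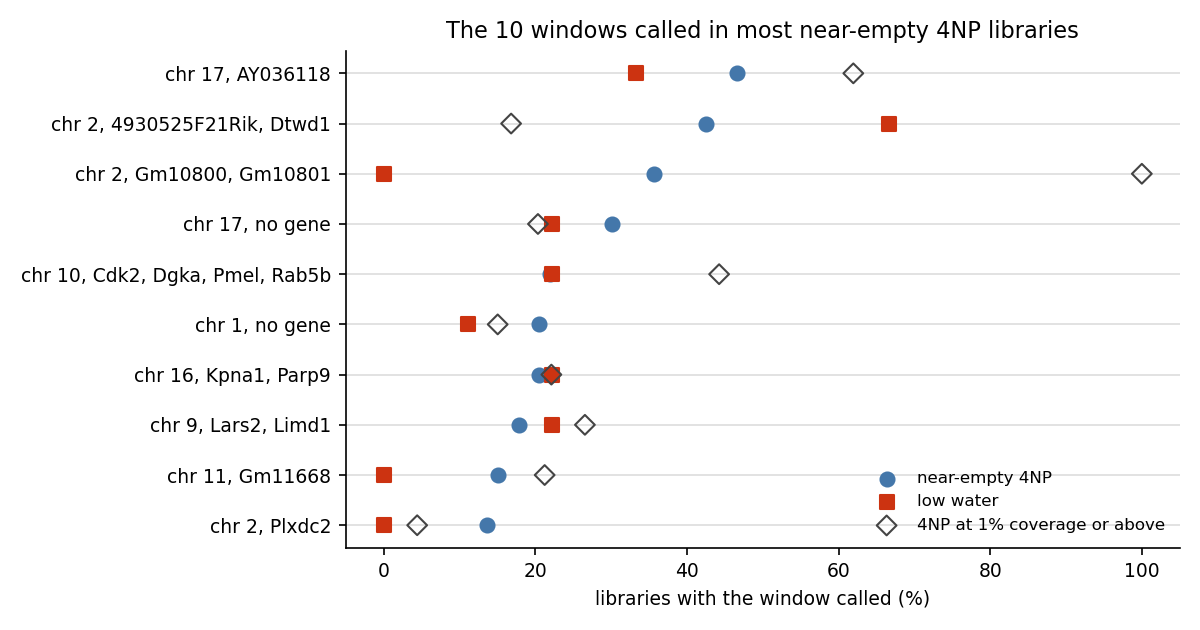
Percentage of the 73 near-empty 4NP libraries (circles), the 9 low water controls (squares) and the 113 4NP libraries at or above 1% coverage (open diamonds) with each of the 10 most called windows positive (the later of a tie at 10 libraries left out), named by chromosome and genes. The Gm10800 and Gm10801 window is positive in 100% of the higher-coverage libraries and in 0 water controls, whereas the Dtwd1 window is highest in the water controls.

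A library with 1% coverage or more holds many more calls than a near-empty one, so nearly every window is called in a larger share of the former. Of the 403 windows called in 3 or more near-empty libraries, 25 went the other way, as a count with no test. They included the Dtwd1 window, the gene-free windows of chromosomes 17 and 1 (30.1% against 20.4%, and 20.5% against 15.0%) and the Plxdc2 window (13.7% against 4.42%). The rest of the 25 were called in 3 to 6 near-empty libraries each. The minimum of 3 was set on the near-empty libraries alone, which favours this direction, and no expected count was worked out.

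Near-empty and low water libraries were compared window by window at the 490 windows called in 3 or more of the 82 libraries. By Fisher's exact test, two-sided with Benjamini-Hochberg adjustment, 0 of 490 windows (0%) had an adjusted p below 0.05, and the lowest adjusted p was 1.00. At an unadjusted p below 0.05 there were 8 windows, each called in 2 water controls and 1 near-empty library (p = 0.0306 by Fisher's exact test). Their direction follows from the group sizes, since a window called in no water control needs 27 near-empty libraries to reach that p and only 2 of the 490 were called in so many. Of the 490, 345 were called in no water control. The test had little reach with 9 water controls. Even 26 near-empty libraries against 0 water controls gave an unadjusted p of 0.0514 by Fisher's exact test. Only 2 windows were called in 3 or more water controls. The 0 of 490 therefore does not show that the groups call the same windows.

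The 2 human DNA controls called 57 windows, 0.0864% of all, and 4 in both. The 4 were the windows of AY036118, Dtwd1, Plxdc2 and Csda, a cold-shock domain protein gene, which 8 near-empty libraries and 1 water control called at chr6:131320001-131360000. None of the 61 calls lay beside another, and 0 of 61 were on X, which allows a share of up to 4.92%. Counting calls in these 57 windows was a step added after the data were seen, and it is given without a test. Among near-empty libraries with at least 20 calls, the mean share of calls in these windows was 2.83% ± 2.89 (SD, n = 61), from 0 to 11.1%. Among low water controls it was 2.27% ± 1.84 (SD, n = 9), from 0 to 5.71%. The ranges overlapped, and both means were many times the 0.0864% of windows.

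This share moved with the experiment and with the number of calls. In the full collection it was 5.06% ± 2.97 (SD, n = 25) in near-empty libraries and 2.71% ± 2.21 (SD, n = 5) in low water controls. Summed over calls, the 21 near-empty libraries of the full collection with 20 to 99 calls had 47 of 820 calls there, or 5.73%, and its 4 water controls of that size 5 of 200, or 2.50%. The 16 crystal violet libraries had 1.49% and their water control 1.52%. The 16 near-empty libraries of the other experiments with 100 or more calls had 0.630%, and the 113 libraries at or above 1% had 0.122%. Without the 4 windows that both controls called, the means were 1.43% ± 1.80 (SD, n = 61) and 0.792% ± 1.12 (SD, n = 9). The human DNA controls were made in the full collection alone, so within it sharing with human samples and sharing with that plate cannot be told apart.

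**Figure D3:**
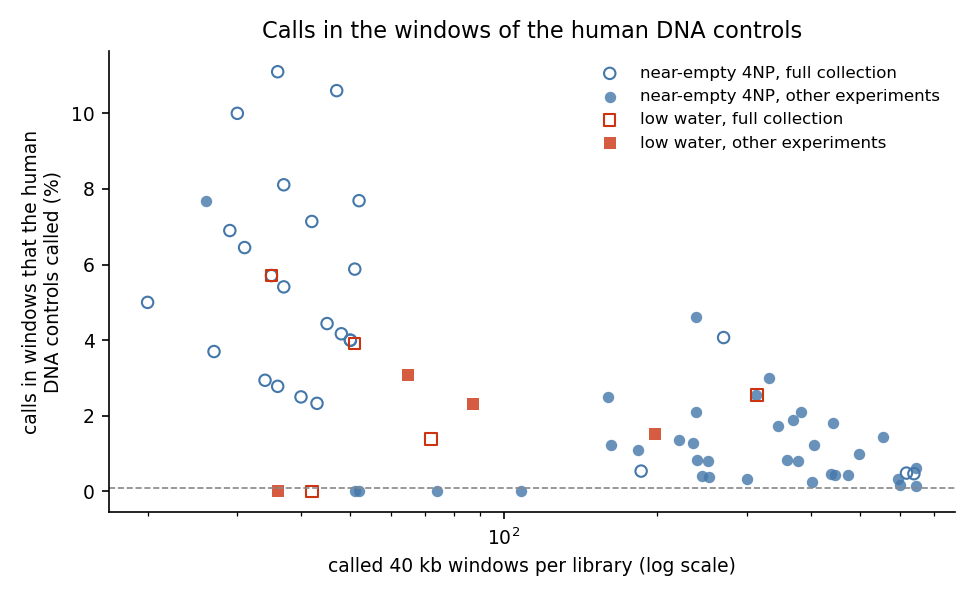
Percentage of each library's calls that fall in the 57 windows called by the human DNA controls, against its number of called windows (log scale), for near-empty 4NP (circles) and low water libraries (squares) with at least 20 calls. Open symbols are the full collection, and the dashed line is the 0.0864% of all windows that these 57 make up; full-collection libraries of 20 to 52 calls reach 11.1%.

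Pairs of libraries shared more windows than scattered calls would. Pairs of near-empty libraries from the same experiment shared 1894 windows where 364 were expected, a ratio of 5.20 over 570 pairs, and pairs from different experiments had a ratio of 3.01 over 2058 pairs. Pairs of low water controls had a ratio of 8.75 over 11 pairs of the same experiment, from 11 shared windows. It was 10.3 over 25 pairs of different ones, from 39 shared windows. Near-empty libraries paired with low water controls gave 7.12 within and 4.95 between experiments. Against 4NP libraries at or above 1% the near-empty libraries had ratios of 1.20 and 1.18. The human DNA controls shared 4 windows with each other where 0.0142 were expected, a ratio of 282 from 1 pair. They had ratios of 41.4 with the near-empty and 36.8 with the low water libraries of the full collection. With those of other experiments the ratios were 15.8 and 32.7, the latter from 12 shared windows. Pairs share libraries and are not independent, so these ratios carry no test. The groups also differ in calls per library, so their ratios are not like for like.

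The recurrent share of a library is the percentage of its calls in windows that at least 3 of the other 81 near-empty and low water libraries also called. It was 8.03% ± 6.22 (SD, n = 61) in near-empty and 10.9% ± 3.25 (SD, n = 9) in low water libraries. The difference of -2.88 percentage points was within the spread of libraries (two-sided permutation test of means, p = 0.181, adjusted p = 0.482). Within the full collection the near-empty libraries had the higher mean, 10.9% ± 6.75 (SD, n = 25) against 9.34% ± 3.59 (SD, n = 5), a difference of 1.52 points (exact permutation p = 0.633). Without water control replicate 5 it was 0.225 points.

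Calls that lie beside each other are what a slice of a nucleus would add. For each library the share of calls with a called neighbour was set against the share expected from scattered calls at that coverage, and the difference is the neighbour excess. It was 4.81 percentage points ± 6.79 (SD, n = 61) in near-empty and 4.09 ± 4.35 (SD, n = 9) in low water libraries. The difference of 0.720 points did not pass the test (permutation p = 0.770, adjusted p = 1.00). It was 0.151 without protocol_c replicate 1 of the reagent volume test and 1.92 without water control replicate 5 of the full collection. It was -0.824 with labels permuted within experiments, which used only the 44 near-empty libraries of experiments with a low water control. In medians it was -0.790 and at a coverage limit of 0.5% it was -0.679. In the full collection near-empty libraries had the lower mean, 2.00 ± 3.21 (SD, n = 25) against 4.76 ± 5.66 (SD, n = 5), with a difference of -2.76 points (exact permutation p = 0.137). Without water control replicate 5, at 13.7 points, the other 4 averaged 2.53 ± 3.10 (SD) and the difference was -0.530. The 113 libraries at or above 1% ranged from 7.21 to 75.5 points, as a description, since coverage separates them by rule.

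The near-empty libraries were unlike each other in this measure. No call had a called neighbour in 18 of the 61 libraries with at least 20 calls, nor in 3 of the 9 low water controls. Of those 18, 16 belonged to the 21 full-collection libraries with 20 to 52 calls. The 16 crystal violet libraries all had neighbours, with an excess of 1.58 to 5.71 points and a median of 3.53, and their water control had 3.44. The highest water control, at 13.7 points, was replicate 5 of the full collection, and the others lay between -0.197 and 5.61. More near-empty libraries exceeded 5.61, but only 3 exceeded 13.7. They were protocol_c replicate 1 of the reagent volume test with 38.9, frozen-post-incubation replicate 2 with 31.9, and pi_stained_frozen replicate 12 with 13.9. In the first of these 180 of 447 calls had a called neighbour, 40.3% with a 95% Clopper-Pearson interval of 35.69% to 44.98%, and in the second 78 of 239, 32.6% with an interval of 26.73% to 38.98%. Such intervals cover counting error only.

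The runs themselves were short. The near-empty libraries held 13642 runs, of which 13078 were 1 window long, 511 were 2, 42 were 3, 7 were 4 and 4 were 5. Runs of 2 or more held 8.38% of their calls and occurred in 45 of 73 libraries, and runs of 3 or more occurred in 15. Of the runs of 5 windows, 200 kb each, 3 were in pi_stained_frozen replicate 12 at chr11:75560001-75760000 over Doc2b, Rph3al and Ywhae, a 14-3-3 protein gene, in pi_stained_frozen replicate 8 at chr12:78280001-78480000 over Fut8, a fucosyltransferase gene, and in frozen-post-incubation replicate 2 at chr12:105680001-105880000 over Gsc, the homeobox gene goosecoid, and Gm10000. All 11 runs of 4 or 5 windows came from these 3 libraries and protocol_c replicate 1.

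The low water controls held 877 runs, of which 856 were 1 window long, 20 were 2 and 1 was 4. That run of 4 lay at chrX:20440001-20600000 over Syn1, Timp1, Cfp, Elk1 and Uxt in water control replicate 5 of the full collection. Another of its runs, of 2 windows, lay at chrX:12000001-12080000 without a protein-coding gene. The 61 calls of the human DNA controls made 61 runs of 1.

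The spread of calls over chromosomes was measured by a dispersion index, the Pearson chi-square of calls per chromosome against the chromosome's share of windows with sequence, divided by its 19 degrees of freedom. Evenly scattered calls give values near 1. The index was 5.41 ± 7.50 (SD, n = 61) in near-empty and 1.66 ± 1.35 (SD, n = 9) in low water libraries, with medians of 2.12 and 1.40. The difference of 3.75 did not pass the test (permutation p = 0.118, adjusted p = 0.474), and in the full collection it was 0.552 (exact permutation p = 0.831). It was 1.58 with labels permuted within experiments, over the 44 near-empty libraries of experiments with a low water control. It was 1.95 at a coverage limit of 0.5% and 2.45 with 4NP libraries inside the coverage range of the water controls. The highest water value was 4.89, in replicate 5 of the full collection, and the others lay between 0.513 and 2.26. Of 61 near-empty libraries 15 lay above 4.89, 12 of them outside the full collection.

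Protocol_c replicate 1 had the highest index, 39.7, with 115 of 447 calls on chromosome 5, where 25.9 were expected. The next were pi_stained_frozen replicate 12 with 24.6, where 90 of 643 calls were on chromosome 11 and 29.8 were expected, and frozen-post-incubation replicate 2 with 22.5, where 64 of 239 were on chromosome 2 and 16.7 were expected. Unstained replicate 2 of the SYBR Gold test had 19.9 and pi_stained_frozen replicate 8 had 19.6. The library labelled 8ul-mdc-pk replicate 1 had 51 of 108 calls on chromosome 1 and no call on 9 chromosomes (index 17.8). The unstained library of the eosin test had 26 of 51 calls on chromosome 4 and an index of 10.5. The index rises with the number of calls for the same unevenness, and its median was 1.21 in the 25 near-empty libraries with 20 to 99 calls and 3.41 in the 36 with 100 or more, a size that only 2 water controls had. The 21 full-collection libraries with 20 to 52 calls had indices from 0.644 to 2.12 with a median of 1.06, and the crystal violet libraries a median of 2.42. The 3 libraries with the highest indices, 39.7, 24.6 and 22.5, were also the 3 with a neighbour excess above every water control, at 38.9, 13.9 and 31.9 points.

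**Figure D4:**
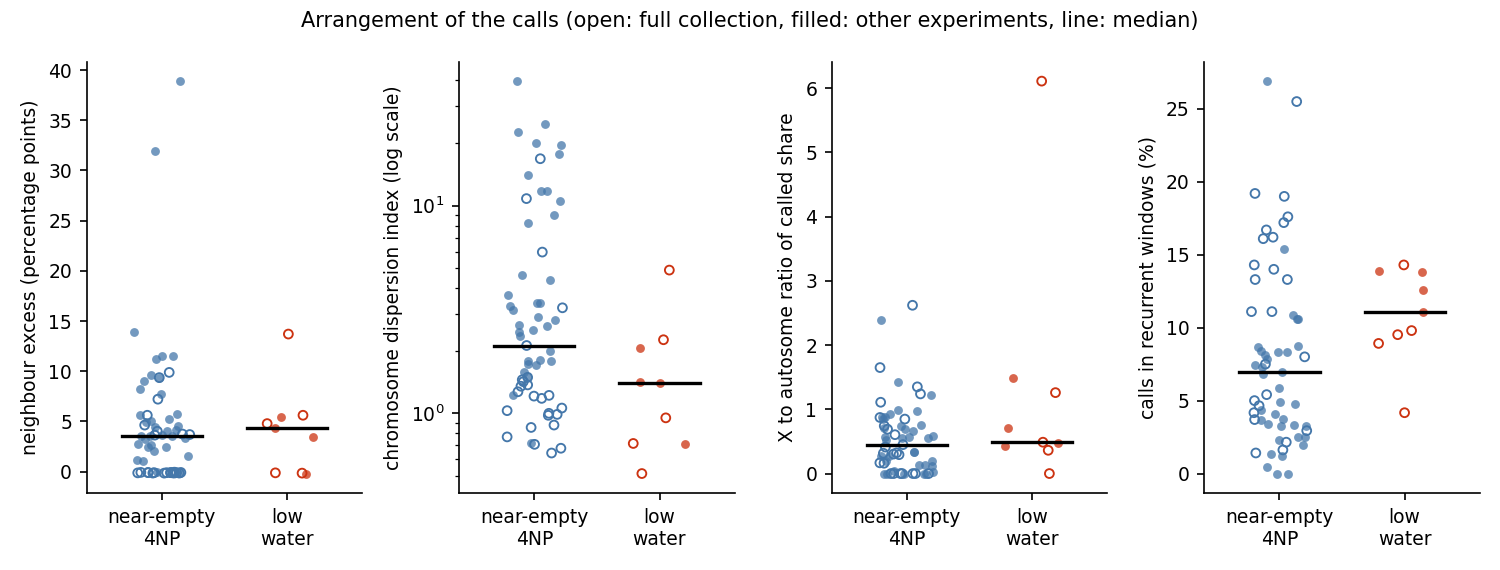
Neighbour excess (percentage points), chromosome dispersion index (log scale), X to autosome ratio and percentage of calls in recurrent windows, for near-empty 4NP (blue, 61 libraries) and low water (red, 9) libraries with at least 20 calls, 1 point per library. Open points are the full collection, filled points other experiments and lines the medians; the groups overlap in all 4 panels, with near-empty libraries alone above an index of 4.89.

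Some chromosomes held more calls than their windows would give. Taking each of the 61 near-empty libraries as 1 value, calls on chromosome 2 were 1.54 ± 0.0917 (SE) times the expected number and were above it in 49 of 61 libraries. Chromosome 11 followed with 1.32 ± 0.106 (SE), above in 41 libraries. In low water controls the same chromosomes had 1.29 ± 0.227 and 1.29 ± 0.203 (SE, n = 9), and the human DNA controls had 12 of 61 calls on chromosome 2, which is 2.82 times the expected number. Summed over the 113 libraries at or above 1% they had 1.04 and 1.19. Without the 12 windows called in 10 or more of the 82 libraries, the summed near-empty calls of chromosome 2 were 1.42 times the expected number, against 1.46 with them. Chromosome 14 was above its expected number in 8 of 9 low water controls, at 1.47 ± 0.157 (SE), and in 24 of 61 near-empty libraries, at 1.02 ± 0.0913 (SE). Chromosome 18 was at 1.37 ± 0.209 (SE) in low water controls, above in 5 of 9, and at 1.01 ± 0.103 (SE) in near-empty libraries. These are descriptions with no test.

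Chromosome X was the lowest chromosome of the near-empty libraries. As background, a male line has 1 copy of X and 2 of each autosome, so X windows have fewer chances to be in a slice. Whether this made the X share low here was not tested. Near-empty libraries had 485 of 14274 calls on X, 3.40% with a 95% Clopper-Pearson interval of 3.107% to 3.708%, where X holds 6.37% of the windows. Low water controls had 61 of 900, 6.78% with an interval of 5.224% to 8.622%, of which replicate 5 of the full collection gave 21. These intervals pool calls over libraries that vary widely and cover counting error only. Libraries at or above 1% had 3.42%. The X to autosome ratio, the called fraction of X windows divided by that of the windows on autosomes, was 0.551 ± 0.555 (SD, n = 61) in near-empty and 1.26 ± 1.88 (SD, n = 9) in low water libraries. The difference of -0.706 had an unadjusted permutation p of 0.0383 and an adjusted p of 0.307. With a minimum of 50 calls it was -1.24 (permutation p = 0.00852, adjusted p = 0.0682) and in the full collection -1.08 (exact permutation p = 0.0816). With labels permuted within experiments it was -0.619 (permutation p = 0.0793). The difference rested on 1 library. Water control replicate 5 of the full collection had 21 of its 72 calls on X and a ratio of 6.11, and without it the other 8 averaged 0.651 ± 0.491 (SD) and the difference was -0.0993, or 0.0377 in the full collection. The medians were 0.450 and 0.488, so most water controls also had fewer X calls than an even spread would give.

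**Figure D5:**
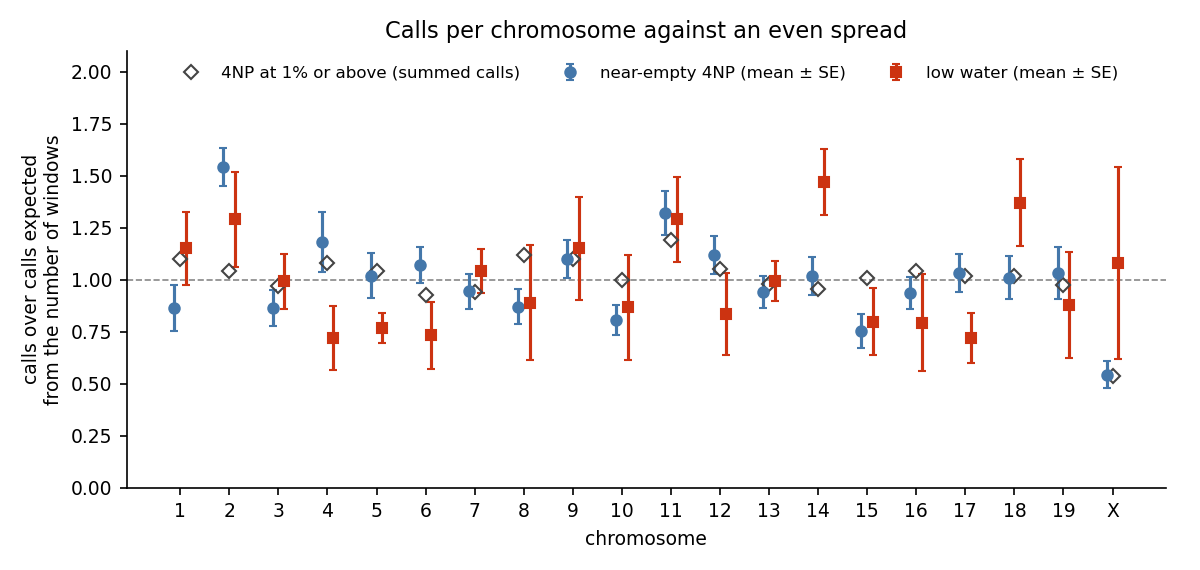
Calls per chromosome divided by the calls expected from the chromosome's number of windows, as mean ± SE over the 61 near-empty 4NP libraries (circles) and the 9 low water controls (squares), and from summed calls of the 113 4NP libraries at or above 1% (open diamonds). Chromosome 2 stands highest for the near-empty libraries at 1.54 and X lowest at 0.544, and the water value of X, 1.08, includes replicate 5 of the full collection.

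Called windows of both groups were richer in genes than the genome. The share overlapping a protein-coding gene was 67.2% ± 6.52 (SD, n = 61) in near-empty and 66.4% ± 3.79 (SD, n = 9) in low water libraries, where 54.7% of all windows with sequence overlap one and libraries at or above 1% averaged 58.9%. The difference of 0.812 points did not pass the test (permutation p = 0.718, adjusted p = 1.00). Over the alternatives run it ranged from -0.0322 with a minimum of 50 calls to 3.61 in the full collection, and it was -0.0171 without water control replicate 5 of the full collection and 2.78 at a coverage limit of 0.5%. Mean GC of called windows was 42.4% ± 0.851 (SD, n = 61) and 42.6% ± 0.259 (SD, n = 9), against 41.8% over all windows with sequence (difference -0.162 points, permutation p = 0.569, adjusted p = 1.00). The highest and lowest mean GC, 44.9% and 40.0%, were both in near-empty libraries, and all 9 water values lay inside.

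The mitochondrial genome lies in 1 window of its own, outside the rows that chose the members. It was called in 25 of 73 near-empty libraries, 34.2% with a 95% Clopper-Pearson interval of 23.53% to 46.28%, and in 3 of 9 low water controls, 33.3% with an interval of 7.485% to 70.07%. Fisher's exact test, two-sided, gave p = 1.00 for this comparison. It was called in 106 of the 113 libraries at or above 1% and in neither human DNA control. Within the near-empty libraries the call went with the number of nuclear windows, since 23 of the 36 libraries with 100 or more calls had it, against 2 of 25 with 20 to 99 calls and 0 of 12 with fewer. In the full collection 3 of 28 near-empty libraries and 2 of 5 water controls had it (Fisher's exact test, p = 0.155, a difference of -29.3 points that was -14.3 without water control replicate 5). The share of all calls that lay outside chromosomes 1 to 19 and X was 0.269% ± 0.569 (SD, n = 61) and 0.243% ± 0.461 (SD, n = 9) in near-empty and low water libraries (permutation p = 0.898, adjusted p = 1.00). In the 3 water controls with such a call it was the mitochondrial window itself, so this share is not separate from that call. In the full collection the near-empty libraries had the lower mean, 0.0341% ± 0.113 (SD, n = 25) against 0.337% ± 0.593 (SD, n = 5), a difference of -0.303 points (exact permutation p = 0.0456, adjusted p = 0.182). With labels permuted within experiments the difference was -0.203 points (permutation p = 0.0156, adjusted p = 0.125). Both values rested on water control replicate 5, at 1.37%, and without it they were -0.0452 and -0.0606 points (permutation p = 0.806 and 0.0956).

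Over the 8 measures tested, 0 had an adjusted p below 0.05 in the comparison of near-empty 4NP with low water libraries, and 1, the X to autosome ratio, had an unadjusted permutation p below 0.05. The comparison rests on 9 water controls, and these p-values do not show that the groups are alike.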

How the data were processed

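The authors deposited 1 table for the libraries that failed quality control, with a call of 0 or 1 (negative or positive) for each of 68162 windows of 40 kb in 199 libraries, and no read counts. Per the labels and the study's methods, reads were aligned to mm9 with Bowtie2 (version 2.1 in the submitters' processing notes), duplicates were removed, and GAMtools called a window positive at a fixed number of reads. The depth of each library is unknown from this table, and at a fixed threshold a deeper library calls more windows. Libraries were grouped by title. Replicate numbers only name libraries in the order of their records, and nothing says that the 4NP libraries came from separate cultures or that the water controls were prepared on separate occasions, so p-values measure the spread between libraries.

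The members, the measures and the windows named were chosen with earlier results of these data known. Named windows were the 10 called in most near-empty 4NP libraries, those called in 3 or more low water controls, any with an adjusted p below 0.05, and the 5 and 3 longest runs, of which some are not reported here. The 20 windows' alignments (blastn 2.17.0), the counts in windows of the human DNA controls and the printed stretches were added after seeing the data; the 240-base tracts planned for printing were simple repeats and are not shown. Measures that are shares of calls used libraries with at least 20 calls. Differences in means were tested two-sided by permutation, exactly up to 5000000 arrangements and otherwise with 100000 resamples (numpy 2.4.6), Fisher's exact test by scipy 1.17.1, and p-values were adjusted by Benjamini-Hochberg over 8 measures or over windows. Window sequence and genes came from NCBIM37 and GENCODE vM1, whose chromosome lengths equal those of the table. Measures and tests were tested on simulated calls. Alternatives were a coverage limit of 0.5%, minimums of 5 and 50 calls, blocks by experiment, medians, the full collection alone, and leaving out each library. Labels permuted within experiments used only experiments that had both groups, and each value was set against its experiment's mean.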

Additional observations from a re-analysis of the deposited data

Results flagged for a closer look

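Values were looked at again where the highest or lowest library of a group of 4 to 10 stood far from the rest by Dixon's ratio, which chance alone does in about 1 in 20 groups. Of 27 combinations of group and measure, 7 were picked out, and 6 of them were the same library, water control replicate 5 of the full collection. Its X to autosome ratio was 6.11, where the other 4 low water controls of the full collection lay between 0 and 1.26 and all other 8 between 0 and 1.48. Its neighbour excess was 13.7 points, against -0.197 to 5.61 in the other 8, and its dispersion index was 4.89, against 0.513 to 2.26. Its share of calls outside chromosomes 1 to 19 and X was 1.37%, against 0 to 0.317% in the full collection and 0 to 0.503% over all 8 others. Of its 72 calls 21 were on X, 29.2% with a 95% Clopper-Pearson interval of 19.05% to 41.07%, and they included its run of 4 windows. The other library was water control replicate 6 of the full collection, with 314 calls where the other 4 had 35 to 72.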

How the results depend on the processing

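None of the 8 measures and 0 windows passed an adjusted p of 0.05 under any alternative run, so the changes listed are among differences that did not pass the test. The 0 windows carry little weight, since the test by window had little reach with 9 water controls. Of 89 alternatives other than leaving out 1 library, 19 of them added after seeing the data, 20 turned the direction. For the neighbour excess the difference of near-empty minus low water was -0.824 points with labels permuted within experiments, -2.76 in the full collection only, -0.790 as a difference in medians and -0.679 at a coverage limit of 0.5%. For the share of calls outside chromosomes 1 to 19 and X it was -0.0317 points with 4NP libraries inside the coverage range of the water controls, -0.0693 with a minimum of 50 calls, -0.203 with labels permuted within experiments (permutation p = 0.0156, adjusted p = 0.125) and -0.303 in the full collection only (exact permutation p = 0.0456, adjusted p = 0.182). For the mitochondrial window it was -29.3 points in the full collection only, -3.92 inside the water coverage range and -12.6 at the 0.5% limit. Mean GC gave 0.0515 points without the cresyl violet test, gene overlap -0.0322 points with a minimum of 50 calls, and the recurrent share 1.52 points in the full collection only. Without water control replicate 5, an alternative added after seeing the data, the full collection alone gave -0.530 points for the neighbour excess, 0.0377 for the X to autosome ratio, 0.225 points for the recurrent share, -0.0452 points for calls outside chromosomes 1 to 19 and X and -14.3 points for the mitochondrial window, and labels permuted within experiments gave -0.0606 points for calls outside. Without a turn, the X to autosome difference was -1.24 with a minimum of 50 calls, -1.08 in the full collection and -0.0384 in medians, and that of the dispersion index fell from 3.75 to 1.58 with labels permuted within experiments, 1.95 at the 0.5% limit, 2.45 inside the water coverage range, 0.552 in the full collection and 0.726 in medians. The gene overlap difference, 0.812 points over all libraries, was 3.61 in the full collection, 2.78 at the 0.5% limit, 2.11 without the cresyl violet test and 1.93 inside the water coverage range. The cause of these changes was not tested.

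Leaving out each library in turn gave differences from 0.151 to 1.92 points for the neighbour excess, 3.18 to 4.15 for the dispersion index, -0.863 to -0.0993 for the X to autosome ratio, -0.204 to -0.110 points for mean GC and -0.0171 to 1.40 points for gene overlap. It gave -3.73 to -2.46 points for the recurrent share, -0.0314 to 0.167 points for calls outside chromosomes 1 to 19 and X, and -3.25 to 9.25 points for the mitochondrial window. Leaving out each of the 9 water controls gave 0 windows in the test by window, which had little reach and in which no near-empty library was left out. Water control replicate 5 of the full collection set 7 of these ends, and protocol_c replicate 1 gave the lowest neighbour excess and dispersion index. Requiring at least 5 other libraries changed the recurrent difference from -2.88 to -0.324 points. No paired analysis was possible because the labels give no replicate numbers that near-empty 4NP and water libraries share. With 9 water controls and a median of 65 calls in them, the precision is limited, and library depth was not known.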
